A study of Mus musculus with 48 samples.

Results

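Resident dendritic cells of the tumor-draining lymph node were compared after cisplatin and after PBS, using 6 of the 48 libraries of a mouse series (3 cisplatin and 3 PBS). The libraries were chosen by their labels alone: cells sorted as resident dendritic cells (rDC) from digested tumor-draining nodes (TDLN) of tumor-bearing mice labelled wild type, given cisplatin or the PBS vehicle. The other groups used here were rDC from nodes labelled LN and migratory dendritic cells (mDC) from the TDLN, each with 3 cisplatin and 3 PBS libraries. The labels do not give the tissue drained by the LN nodes, the tumor line, the dose or time of cisplatin, the sex or age of the mice, the sort markers, or whether each library had its own mouse. The p-values therefore measure the spread between these libraries, which may be technical.

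Resident dendritic cells develop inside the lymph node from blood-borne precursors and sample antigen that arrives with lymph, while migratory dendritic cells mature in peripheral tissue and walk into the node, switching on Ccr7, Fscn1 and Ccl22 on the way. Both present antigen to T cells on MHC molecules. Cisplatin is a platinum compound that crosslinks DNA, a lesion sensed through p53 and repaired by the Fanconi anemia and excision repair proteins. Dying cells taken up by phagocytes can also release nucleic acids that feed the interferon response.

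The 6 libraries held 3035339, 3665894 and 2995483 counts with cisplatin and 3842097, 2721840 and 3103715 counts with PBS. Levels below are counts scaled to library size (CPM) scaled over the 12 rDC libraries unless another scale is named, and fold changes are log2, cisplatin over PBS, ± standard error. Dendritic cell genes were present, although none of those given here is made by resident cells alone. Cd74, the invariant chain that B cells also make, averaged 33582 ± 6856 TPM with cisplatin and 33497 ± 208 TPM with PBS (SD, n = 3 each). Flt3, the receptor for a dendritic cell growth factor, averaged 204 ± 2.48 and 218 ± 14.1 TPM in the same order, below the 306 and 301 TPM of cisplatin and PBS mDC. Xcr1 and Clec9a, receptors of type 1 conventional dendritic cells, averaged 50.4 and 57.6 TPM with cisplatin and 46.7 and 50.4 TPM with PBS. Ccr7, high in migratory cells, was at 578 TPM in cisplatin rDC and 877 TPM in PBS rDC, against 8405 and 8560 TPM in cisplatin and PBS mDC of the same node. Transcripts of plasmacytoid dendritic cells and B cells were present in the sort. Siglech, a plasmacytoid receptor, averaged 1510 ± 187 TPM with cisplatin and 1473 ± 29.1 TPM with PBS, and Cd79a, part of the B cell receptor, averaged 458 ± 51.2 and 509 ± 4.1 TPM in that order.

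The second cisplatin library stood apart from the other 5. Over 9348 genes at 10 CPM or more, its median absolute log2 deviation from the mean of the other 2 libraries of its group was 0.313, and 258 genes deviated by over 1. In the other 5 libraries these values were 0.115 to 0.202 and 25 to 74 genes. Those of cisplatin libraries 1 and 3 are measured against a mean that holds library 2. The deviation followed transcript composition. With the genes in 4 equal bins by GC content, the lowest bin was shifted by -0.416 in that library, the next bins by -0.0876 and 0.19, and the highest by 0.39. The bin of shortest transcripts was shifted by 0.28 and that of longest by -0.103. In PBS libraries the GC bins stayed between -0.0565 and 0.05. Its counts differed from those of cisplatin libraries 1 and 3 by a chi-square per degree of freedom of 13.03 and 12.6, against 1.92 between libraries 1 and 3 and 1.89 to 2.2 among PBS libraries. Summed CPM of 12 MHC class II genes was 48550, 68340 and 48404 in cisplatin libraries 1 to 3 and 52819 to 54622 with PBS, and that of 13 mitochondrially encoded genes was 1488, 662 and 1295 with cisplatin and 969 to 1099 with PBS. Both sums in library 2 lay outside the range of the other 5 libraries.

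**Figure D1:**
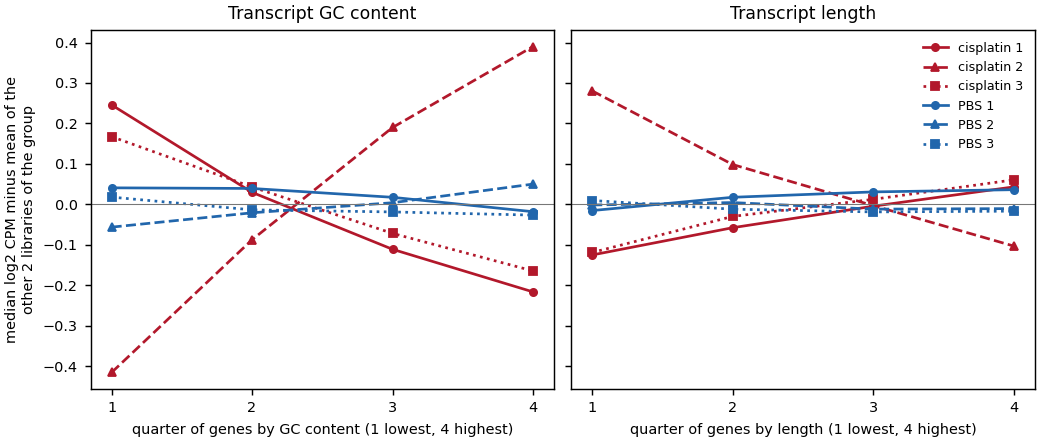
Median log2 CPM of each library minus the mean of the other 2 libraries of its group (y axis), for 4 equal bins of genes ordered by transcript GC content (left) or transcript length (right). Cisplatin library 2 runs between -0.416 and 0.39 across the GC bins, while the 3 PBS libraries stay within -0.0565 and 0.05.

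Between cisplatin and PBS libraries 142 of 14023 genes tested differed at an adjusted p under 0.05 (1.01%). Of these, 56 were higher (0.399%) and 86 lower (0.613%) with cisplatin, in the quasi-likelihood test of edgeR. All adjusted p below come from it, by the Benjamini-Hochberg method. Some lists below also carry counts at an unadjusted p under 0.05. The share of all genes at that unadjusted level is not given, so those counts have no background to be read against. The median log2 fold change of all genes was 0.00246. More than 1 log2 unit of change was seen in 18 of the higher and 61 of the lower genes. Without cisplatin library 2 the test called 613 of 14383 genes (4.26%), 232 higher (1.61%) and 381 lower (2.65%). Of the 142 genes, 137 were called again and all 142 had the same sign. Without that library the median fold change also ran with GC content, at 0.129, 0.0198, -0.0851 and -0.157 from the lowest to the highest GC bin, against -0.00495, -0.016, -0.0204 and -0.0168 with all 3 libraries. An offset for GC content and length, chosen after the data were seen, called 159 higher and 131 lower genes with all libraries and 218 higher and 224 lower without library 2. These offset fits kept 140 and 131 of the 142 calls, and neither turned a sign.

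**Figure D2:**
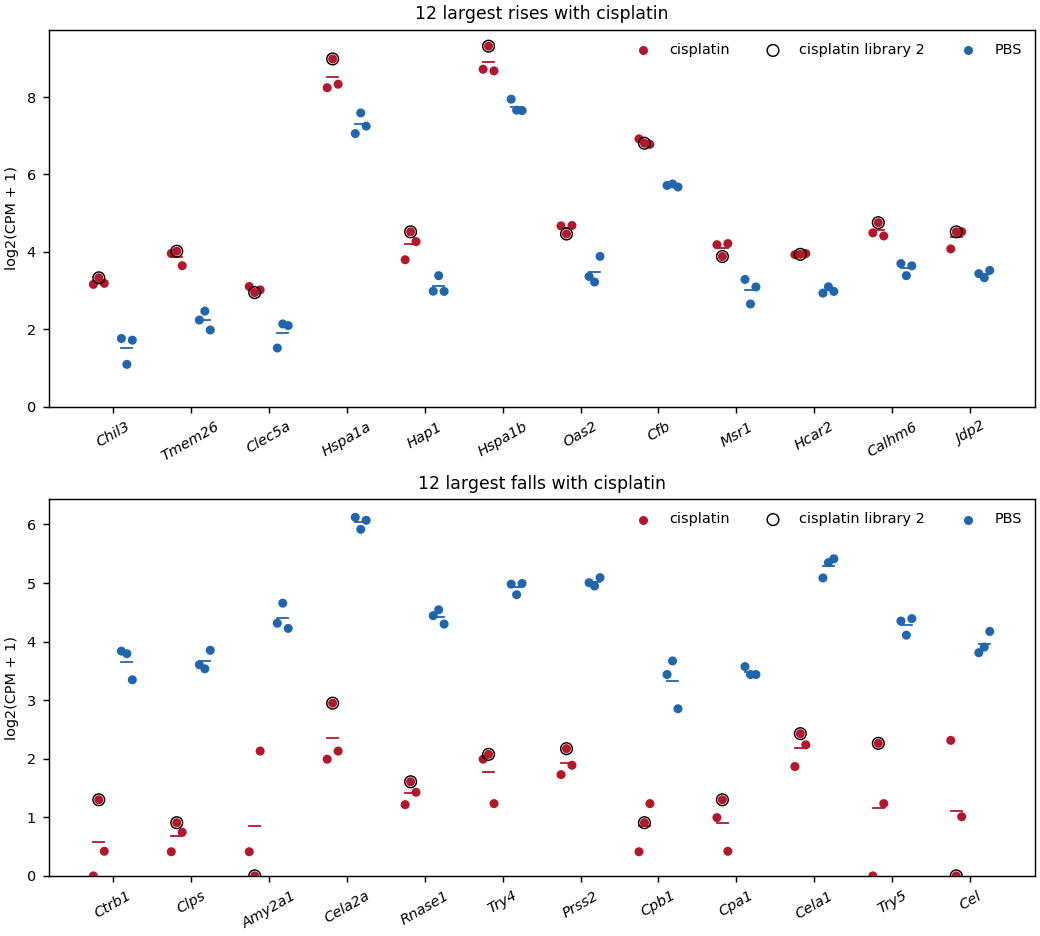
Level of the 12 genes with the largest rise (top) and the 12 with the largest fall (bottom) in each of the 6 libraries, on a log2(CPM + 1) axis, with bars at the group means and cisplatin library 2 ringed. Genes were picked without overlap between cisplatin and PBS, and Cela2a sits at 2.98 to 6.72 CPM with cisplatin and 59.4 to 68.6 CPM with PBS.

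Several of the 12 largest rises were in genes known from macrophages and other myeloid cells. Chil3, a chitinase-like protein of alternatively activated macrophages and monocytes, had 7.94, 9.06 and 8.11 CPM with cisplatin and 2.39, 1.13 and 2.29 CPM with PBS, and its close paralog Chil4 can share its reads. Its groups did not overlap, as for 12.6% of all genes (6.11% higher and 6.5% lower with cisplatin), and it rose by 2.06 ± 0.38 (adjusted p = 0.0085). Msr1, a scavenger receptor, had 17.2, 13.7 and 17.6 CPM with cisplatin and 8.78, 5.3 and 7.54 CPM with PBS, a rise of 1.13 ± 0.21 (adjusted p = 0.0093). Cfb, the factor B of the alternative complement pathway (chromosome 17, 34856374 to 34862518, GRCm38, minus strand), had 120, 111 and 109 CPM with cisplatin and 51.6, 53 and 50.1 CPM with PBS. The Cfb groups lay far apart relative to their spread, and the rise was 1.14 ± 0.21 (adjusted p = 0.0083), although the annotation places Gm20547 over it on the same strand. Clec5a, a myeloid activating lectin, averaged 7.14 ± 0.447 CPM with cisplatin and 2.85 ± 0.857 CPM with PBS (SD, n = 3 each), a rise of 1.36 ± 0.31 (adjusted p = 0.043). Hcar2, a receptor for nicotinic acid and ketone bodies, averaged 14.4 ± 0.157 and 7.03 ± 0.476 CPM in that order and rose by 1.04 ± 0.21 (adjusted p = 0.018). Tmem26, a membrane protein of little known function, rose by 1.89 ± 0.25 (adjusted p = 0.00044) with 14.6, 15.2 and 11.5 CPM in cisplatin libraries and 3.72, 4.54 and 2.95 CPM in PBS libraries. Calhm6, an ion channel subunit induced in activated myeloid cells, rose by 1.03 ± 0.19 (adjusted p = 0.0096), Jdp2, a repressor of AP-1, by 1.02 ± 0.21 (adjusted p = 0.019), and Hap1, a trafficking adaptor that binds huntingtin, by 1.21 ± 0.22 (adjusted p = 0.0065). Leaving out 1 library ended several of these calls. Without PBS library 2 the adjusted p was 0.0538 for Chil3, 0.0657 for Msr1 and 0.0659 for Calhm6, and without PBS library 1 or 3 it was 0.0579 and 0.0574 for Cfb and 0.0602 and 0.0503 for Hap1. Hcar2 and Jdp2 lost theirs without cisplatin 3 or any PBS library (0.0535 to 0.102 and 0.0686 to 0.107), and Clec5a without any library but cisplatin 2 (0.0964 to 0.268).

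Macrophage and monocyte marker lists moved in the same direction. Of 17 tested macrophage genes 3 rose and 0 fell, with a median of 0.38. Among them Adgre1, which encodes F4/80, rose by 0.63 ± 0.12 (adjusted p = 0.014) and C1qb, a chain of complement C1q, by 0.63 ± 0.13 (adjusted p = 0.023). The 18-gene sum of the list was 612, 810 and 614 CPM with cisplatin and 553, 548 and 540 CPM with PBS, so that the groups did not overlap and library 2 was highest. Of 15 monocyte genes 2 rose and 0 fell, with a median of 0.24, Chil3 and Lyz2. Lyz2, the lysozyme of myeloid cells, averaged 2079 ± 84.1 CPM with cisplatin and 1548 ± 24.9 CPM with PBS (SD, n = 3 each), a rise of 0.43 ± 0.07 (adjusted p = 0.0019). The monocyte sum was 7248, 8170 and 7251 CPM with cisplatin and 6549 to 6662 CPM with PBS. None of these list genes was at 0 in all 6 libraries. In bulk samples a change in the number of cells of a type and a change in RNA per cell cannot be told apart, and the part of such cells in the rises was not tested. With cisplatin library 2 left out 3 macrophage and 4 monocyte genes rose. The macrophage calls depended on single libraries, with 0 members called without PBS library 1 or 3 and 1 without PBS library 2. Adgre1 was lost without cisplatin 3 or PBS 1 or 3 (adjusted p = 0.0571 to 0.117) and C1qb without any PBS library (0.0684 to 0.139).

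Receptors for uptake rose in part, with 2 of 23 tested members higher, 0 lower and a median of 0.19 (5 higher without cisplatin library 2 and 1 without PBS library 2). Axl, a receptor tyrosine kinase that binds apoptotic cells through Gas6, had 82.7, 84.7 and 85.5 CPM with cisplatin and 45.2, 39 and 42.6 CPM with PBS. It rose by 0.99 ± 0.11 (adjusted p = 3.7e-05), and this call stood without any 1 library. The other was Msr1. Mertk, a related receptor, had 6.62, 8.47 and 6.08 CPM with cisplatin and 3.46, 5.67 and 2.95 CPM with PBS, and its value of 0.84 ± 0.30 did not pass (adjusted p = 0.29). Csf1r, the receptor for the macrophage growth factor and a member of the list of type 2 conventional dendritic cells, had 483, 547 and 473 CPM with cisplatin and 374, 364 and 340 CPM with PBS, a rise of 0.48 ± 0.08 (adjusted p = 0.003). In that list 2 of 21 genes rose and 1 fell (2 and 2 without cisplatin library 2). Tbx21, the transcription factor T-bet, rose by 0.98 ± 0.23 (adjusted p = 0.049; 0.0566 to 0.294 without any library but cisplatin 1), and Cd4, present on part of the resident cells and on T cells, had 375, 433 and 368 CPM with cisplatin and 516, 545 and 537 CPM with PBS, a fall of 0.44 on the log2 scale (adjusted p = 0.012). The Cd4 call was lost without cisplatin 3 or PBS 2 or 3 (adjusted p = 0.0548 to 0.0668). T cell genes moved with it, since 14 of 18 fell in the same libraries with a median of -1.32, and their part in the fall of Cd4 was not tested.

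Interferon-stimulated genes were higher with cisplatin. Of 32 type I interferon genes tested 4 rose and 0 fell, all 32 had a positive fold change, and the median was 0.40. Oas2, an oligoadenylate synthetase that senses double-stranded RNA, had 24.5, 21 and 24.7 CPM with cisplatin and 9.31, 8.32 and 13.8 CPM with PBS, a rise of 1.15 ± 0.19 (adjusted p = 0.0041). Its relative Oas3 had 39.4, 38 and 33.1 CPM with cisplatin and 19.4, 18.5 and 21 CPM with PBS, a rise of 0.91 ± 0.18 (adjusted p = 0.018). Oasl2, an oligoadenylate synthetase-like protein, averaged 46.6 ± 2.42 CPM with cisplatin and 26.1 ± 5.14 CPM with PBS (SD, n = 3 each) and rose by 0.82 ± 0.14 (adjusted p = 0.0051). Cmpk2, a mitochondrial nucleotide kinase induced by interferon, averaged 33.1 ± 5.23 and 18.2 ± 3.78 CPM in that order and rose by 0.87 ± 0.17 (adjusted p = 0.011). The groups of all 4 genes were separate. Isg15, a ubiquitin-like modifier, had 10.6, 21.3 and 12.5 CPM with cisplatin and 6.38, 7.94 and 10.8 CPM with PBS (0.85 ± 0.27, adjusted p = 0.21). The 32-gene sum was 3122, 3447 and 3197 CPM with cisplatin and 2736, 2641 and 2694 CPM with PBS. Without cisplatin library 2, 12 members rose and 0 fell, while 1 rose without PBS library 3. Oasl2 was lost without PBS library 3 (adjusted p = 0.0526), Cmpk2 without cisplatin 3 or PBS 1 or 3 (0.0515 to 0.0876), and Oas3 without cisplatin 1 or any PBS library (0.065 to 0.105). With the GC and length offset 10 rose.

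Of 23 genes induced by interferon gamma 3 rose and 0 fell, with a median of 0.26. Irgm1, a GTPase that guards against intracellular microbes, had 149, 141 and 156 CPM with cisplatin and 107, 97.6 and 114 CPM with PBS, a rise of 0.48 ± 0.08 (adjusted p = 0.0045; 0.0586 without PBS library 2). Serpina3g, an inhibitor of cysteine proteases, rose by 0.40 ± 0.09 (adjusted p = 0.028) and Iigp1, another GTPase of this family, by 1.01 ± 0.22 (adjusted p = 0.037). Serpina3g was lost without cisplatin 3 or any PBS library (0.0788 to 0.179) and Iigp1 without cisplatin 3 or PBS 1 or 2 (0.0984 to 0.221). The interferon gamma list had 4 higher and 1 lower without cisplatin library 2, 0 calls without PBS library 2 and 1 without cisplatin library 3 or PBS library 1, and its sum of 3979, 5003 and 4155 CPM with cisplatin overlapped that of 4066 to 4247 CPM with PBS.

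Promoters of interferon genes carry the interferon-stimulated response element, bound by interferon-activated transcription factors. Its core, 2 GAAA units with any 2 bases between them, was looked for on both strands from 250 bases before to 50 bases after the start of each gene, in sequences from RefSeq (GRCm38.p6). It was present in 12 of the 22 genes of the type I list with a promoter in that table (54.5%) and in 3.44% of all 32851 promoters. The 2 shares differ in unit. A listed gene counted if any of its promoters held the core, while the second share counts single promoters, 32851 for 27025 gene symbols. Oas3 and Irgm1, which rose, are shown because they hold the core, with the matches in capitals and the overlapping matches of Irgm1 as 1 run. Oasl2 and Cmpk2, which also rose, hold no match in this window. The 2 windows are chr5:120777610-120777909 and chr11:48871371-48871670, both on the minus strand and written 5′ to 3′.
Oas3: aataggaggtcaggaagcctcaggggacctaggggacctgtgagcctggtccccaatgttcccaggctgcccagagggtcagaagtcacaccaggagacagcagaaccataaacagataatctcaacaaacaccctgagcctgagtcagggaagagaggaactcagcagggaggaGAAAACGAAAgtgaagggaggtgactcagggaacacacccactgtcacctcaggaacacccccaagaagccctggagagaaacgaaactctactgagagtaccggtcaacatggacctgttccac
Irgm1: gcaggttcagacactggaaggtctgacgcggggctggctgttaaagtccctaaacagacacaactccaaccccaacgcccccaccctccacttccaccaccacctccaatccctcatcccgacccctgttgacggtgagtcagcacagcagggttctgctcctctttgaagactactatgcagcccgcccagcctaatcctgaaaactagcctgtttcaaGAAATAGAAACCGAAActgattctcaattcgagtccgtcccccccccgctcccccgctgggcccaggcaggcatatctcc

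Heat shock gene Hspa1a and its near copy Hspa1b, which encode the inducible chaperone HSP70, were the most abundant of the largest rises. Hspa1a (chromosome 17, 34969190 to 34972156, GRCm38, minus strand) had 302, 506 and 321 CPM with cisplatin and 132, 192 and 151 CPM with PBS. Every cisplatin library was above every PBS library, library 2 was highest, and the rise was 1.26 ± 0.17 (adjusted p = 0.00048). Without library 2 it was 1.00 (adjusted p = 1.1e-05). Hspa1b (chromosome 17, 34956436 to 34959238, minus strand) had 420, 636 and 408 CPM with cisplatin and 245, 202 and 200 CPM with PBS, a rise of 1.18 ± 0.14 (adjusted p = 0.00011) and of 0.95 without library 2. Reads of the 2 genes could be split between them by the counting, so the separate values are uncertain. Gm20481, annotated over Hspa1a on the other strand, rose as well, by 1.02 ± 0.14 (adjusted p = 0.00048, chosen after its value was seen), and the strand setting of the counting is not given in the sources used here. The chaperone list as a whole did not move together, with 2 of 18 tested members higher, 1 lower and a median of 0.03. Hsph1, the HSP110 partner of HSP70, had 86, 81.5 and 79.1 CPM with cisplatin and 123, 115 and 109 CPM with PBS, a fall of 0.49 on the log2 scale (adjusted p = 0.023; 0.052 to 0.159 without cisplatin 3 or any PBS library). Dnajb1, the HSP40 partner, had 138, 177 and 138 CPM with cisplatin and 131, 131 and 138 CPM with PBS (0.18 ± 0.10, adjusted p = 0.59), and Hsp90aa1 had 171, 150 and 165 CPM and 158, 152 and 158 CPM in that order (0.05 ± 0.08, adjusted p = 0.93).

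The 2 HSP70 promoters are nearly the same, with 296 of 300 bases identical, and are shown because they are the called pair. Heat shock factors bind inverted repeats of GAA, and the capitals mark a pair of such units, GAANNTTC or TTCNNGAA, on either strand. A pair was present in 11 of 16 chaperone genes with a promoter in the RefSeq table (68.8%) and in 15.1% of all promoters. Here too a listed gene counted by any of its promoters, and the second share counts single promoters. Hsph1, which fell, holds such pairs too. The windows are chr17:34972107-34972406 and chr17:34959189-34959488 (GRCm38.p6), both minus strand.
Hspa1a: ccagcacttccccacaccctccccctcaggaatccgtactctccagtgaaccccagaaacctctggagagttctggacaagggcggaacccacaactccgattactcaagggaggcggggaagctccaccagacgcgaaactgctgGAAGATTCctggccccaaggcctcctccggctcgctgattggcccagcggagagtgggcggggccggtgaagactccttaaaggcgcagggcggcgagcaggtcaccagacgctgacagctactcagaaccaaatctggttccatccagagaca
Hspa1b: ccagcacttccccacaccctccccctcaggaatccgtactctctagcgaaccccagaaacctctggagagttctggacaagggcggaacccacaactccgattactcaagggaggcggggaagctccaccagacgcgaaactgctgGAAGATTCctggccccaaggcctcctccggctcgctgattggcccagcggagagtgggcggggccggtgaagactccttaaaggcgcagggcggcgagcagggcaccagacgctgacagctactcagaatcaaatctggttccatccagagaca

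Immediate early genes, which encode the transcription factors switched on within minutes of a stimulus or of tissue handling, changed in small steps. Of 24 tested 4 rose and 0 fell, with a median of 0.05. Jun, a subunit of AP-1, had 593, 727 and 639 CPM with cisplatin and 457, 506 and 422 CPM with PBS, a rise of 0.50 ± 0.09 (adjusted p = 0.0096). Nr4a3, an orphan nuclear receptor, rose by 0.56 ± 0.11 (adjusted p = 0.017), Atf3, a stress-induced repressor that is also the 1 called member of 23 tested unfolded protein and integrated stress genes, by 0.37 ± 0.08 (adjusted p = 0.024), and Egr1, a zinc finger factor, by 0.33 ± 0.07 (adjusted p = 0.027). Fos, the partner of Jun, had 1992, 2564 and 2031 CPM with cisplatin and 2372, 2389 and 2301 CPM with PBS (-0.10 ± 0.09, adjusted p = 0.82), so its groups overlapped. All 4 calls depended on single libraries. Jun was lost without PBS 1 or 3 (adjusted p = 0.0684 and 0.103), Nr4a3 without any PBS library (0.0503 to 0.104), Atf3 without PBS 2 or 3 (0.154 and 0.192) and Egr1 without any library but cisplatin 2 (0.0561 to 0.152). With cisplatin library 2 left out 4 rose and 2 fell. Without PBS library 3 none of the 24 was called, and without PBS library 1 or 2 only 1 was. Of 24 NF-kB targets 1 rose and 0 fell, with a median of 0.22 (5 higher without cisplatin library 2, 3 without cisplatin library 1, and 2 without cisplatin library 3 or PBS library 1). In DESeq2 and in limma voom 5 of them rose, without the low-count filter 4, and with the GC and length offset 9. Nfkbiz, an atypical inhibitor that coactivates secondary NF-kB targets, had 260, 335 and 296 CPM with cisplatin and 160, 170 and 161 CPM with PBS, a rise of 0.86 ± 0.11 (adjusted p = 0.00028). Hdc, which makes histamine, was the 1 of 3 tested mast cell and basophil genes that rose, by 0.86 ± 0.18 (adjusted p = 0.026; 0.0658 to 0.147 without cisplatin 1 or any PBS library).

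Several genes of the mature and migratory dendritic cell state were lower with cisplatin. Of 20 tested 6 fell and 0 rose, with a median of -0.28 (7 and 0 without cisplatin library 2). The list did not shift as a whole, since 6 others had a positive fold change. Among members not called, Serpinb6b averaged 18.4 ± 1.26 TPM with cisplatin and 10.2 ± 3.13 TPM with PBS (SD, n = 3 each). Fscn1, the actin bundler of mature dendritic cells (chromosome 5, 142960343 to 142973185, GRCm38, plus strand), had 46.3, 64 and 51.4 CPM with cisplatin and 117, 130 and 108 CPM with PBS, a fall of 1.13 on the log2 scale ± 0.15 (adjusted p = 0.00035). Ccl22, a chemokine for regulatory and helper T cells, had 7.61, 9.64 and 8.45 CPM with cisplatin and 19.4, 26.9 and 28.2 CPM with PBS (-1.51 ± 0.19, adjusted p = 0.00029). Ccr7, the receptor that guides cells into the node, averaged 758 ± 58.8 CPM with cisplatin and 1119 ± 19.1 CPM with PBS (SD, n = 3 each; -0.56 ± 0.07, adjusted p = 0.00039). Cacnb3, a calcium channel subunit, fell by 1.88 on the log2 scale (adjusted p = 0.0004), Apol7c, an apolipoprotein L of dendritic cells, by 0.79 (adjusted p = 0.0026) and Tnfrsf4, which encodes OX40 and is also made by activated T cells, by 1.75 (adjusted p = 0.019; 0.0548 to 0.119 without cisplatin 3 or any PBS library). Groups were separate for all 6 that fell. The 22-gene sum was 1948, 2078 and 1910 CPM with cisplatin and 2534, 2568 and 2538 CPM with PBS, which an exact two-sided permutation test cannot place below p = 0.1 with 3 against 3 libraries (p = 0.1). On the scale of all 24 dendritic cell libraries this sum was 1674 to 1804 CPM in cisplatin rDC and 2221 to 2237 CPM in PBS rDC, against 50370 to 52675 and 63043 to 63569 CPM in cisplatin and PBS mDC of the same node. The part of migratory cells caught in the rDC sort was not tested. T cell genes fell in the same libraries, and their part in the fall of Ccr7 was not tested either. Of 17 costimulatory genes 0 rose and 1 fell (Tnfrsf4, whose call is the one lost above). Without cisplatin library 2, 2 rose and 1 fell, and 1 rose in DESeq2, in limma voom and with the GC and length offset. Cd80 had 15.9, 14 and 17.9 CPM with cisplatin and 14.1, 16.6 and 15.4 CPM with PBS (0.05 ± 0.16, adjusted p = 0.97), and Cd40 had 82.1, 101 and 76 CPM and 69.1, 70.4 and 64.9 CPM in that order (0.35 ± 0.11, adjusted p = 0.2). Of 24 cytokine and chemokine genes 0 rose and 2 fell, Ccl22 and Ccr7. The same list had 2 higher and 2 lower without cisplatin library 2, in DESeq2 and in limma voom, and 4 higher and 2 lower with the GC and length offset.

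**Figure D3:**
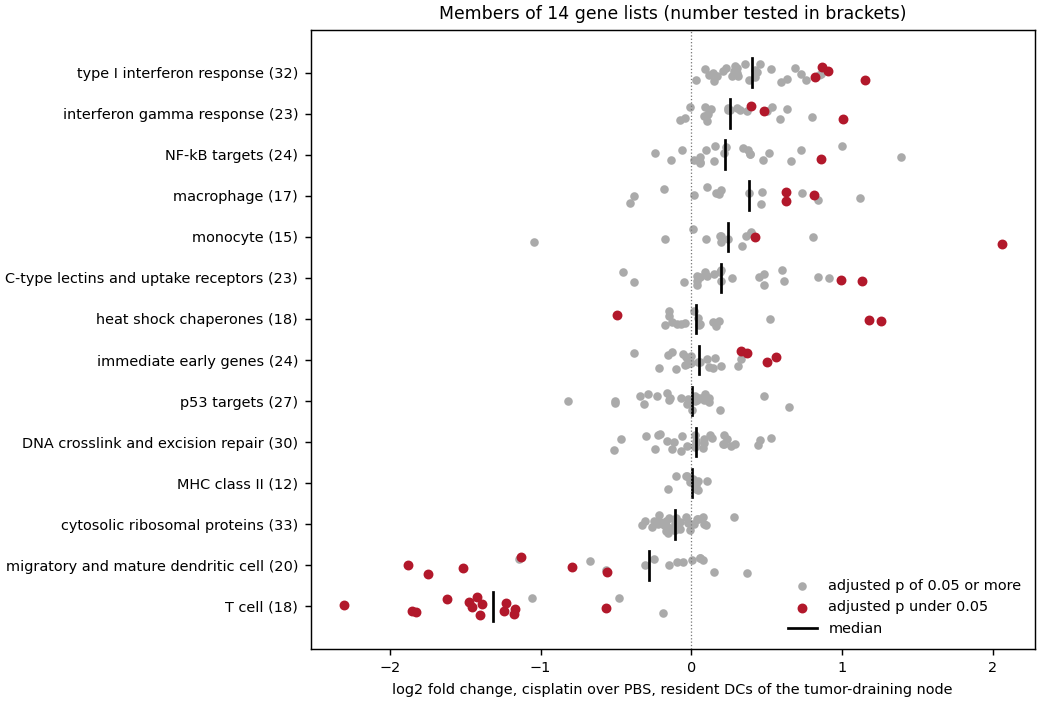
Log2 fold change of each tested member (points) of 14 gene lists, cisplatin over PBS in rDC of the TDLN, with called members in red and list medians as black bars. T cell genes center on -1.32, type I interferon genes on 0.40, and p53 targets on 0.00434.

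Transcripts of T cells were lower with cisplatin, although the cells were sorted as dendritic cells. Of 18 T cell genes 14 fell and 0 rose (14 and 0 without cisplatin library 2), all 18 were negative, and the median was -1.32. Cd3d, a chain of the CD3 complex, had 4.3, 4.67 and 3.72 CPM with cisplatin and 23.1, 19.3 and 20.6 CPM with PBS (-2.31 ± 0.25, adjusted p = 4.1e-05). Cd3e, another CD3 chain, had 11.9, 11.1 and 11.2 CPM with cisplatin and 34.8, 45 and 42 CPM with PBS (-1.82 ± 0.21, adjusted p = 7.9e-05). Tcf7, a transcription factor of naive and memory T cells, had 28.8, 25.7 and 28.7 CPM with cisplatin and 73.1, 76.8 and 67.8 CPM with PBS (-1.39 ± 0.13, adjusted p = 1.1e-05). The kinase Lck fell by 1.24 on the log2 scale (adjusted p = 6.5e-05) and the adhesion receptor Cd6 by 1.42 (adjusted p = 0.00011). The members that did not pass were Cd28 (-0.56, adjusted p = 0.11), Themis (-1.06, adjusted p = 0.3), Cd8b1 (-0.19, adjusted p = 0.52) and Foxp3, the regulator of regulatory T cells (-0.48, adjusted p = 0.79). The 18-gene sum was 475, 531 and 476 CPM with cisplatin and 918, 934 and 913 CPM with PBS, so the groups lay far apart relative to their spread. No T cell gene was at 0 in all 6 libraries. With 1 library left out 10 to 14 members were called, the fewest without PBS library 1. Other T cell genes outside the list, chosen after their values were seen, followed. Zap70, a kinase of the T cell receptor, had 8.27, 6.43 and 3.38 CPM with cisplatin and 22.9, 28 and 20.6 CPM with PBS (-1.97 ± 0.29, adjusted p = 0.0012), and Icos and Ctla4, receptors of activated T cells, fell by 1.19 and 1.5 on the log2 scale (adjusted p = 0.0041 and 0.0044). The B cell and natural killer lists gave no call by edgeR with all libraries. Ighe and Igha, immunoglobulin genes outside these lists, were called and are given below. B cell genes summed to 3992, 4419 and 4087 CPM with cisplatin and 4653, 4503 and 4515 CPM with PBS (0 of 18 called, median -0.14, with 5 lower at an unadjusted p under 0.05, 1 lower in DESeq2, 3 in limma voom and 5 without cisplatin library 2). Natural killer genes summed to 274, 250 and 270 CPM with cisplatin and 227, 238 and 229 CPM with PBS (0 of 13 called, median 0.35, with 3 higher unadjusted, 1 in DESeq2, 2 in limma voom and 2 without cisplatin library 2).

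The 12 largest falls among the genes the naming rule allows were all in genes of the exocrine pancreas, which encode digestive enzymes of the acinar cell or their partners. Cela2a, an elastase (chromosome 4, 141814962 to 141826160, GRCm38, minus strand), had 2.98, 6.72 and 3.38 CPM with cisplatin and 68.6, 59.4 and 66.2 CPM with PBS (-3.86 ± 0.23, adjusted p = 4.4e-08). Prss2, a trypsinogen, had 2.32, 3.51 and 2.7 CPM with cisplatin and 31.1, 29.9 and 33.1 CPM with PBS (-3.44 ± 0.24, adjusted p = 1.9e-07). Cela1, another elastase, had 2.65, 4.38 and 3.72 CPM with cisplatin and 33, 39.7 and 41.6 CPM with PBS (-3.39 ± 0.27, adjusted p = 1.3e-06). Try4 and Try5, 2 more trypsinogens, fell by 3.52 and 3.36 on the log2 scale (adjusted p = 2.6e-06 and 0.00073), and Rnase1, the pancreatic ribonuclease, by 3.58 (adjusted p = 5.4e-06). Clps, the colipase that anchors pancreatic lipase, fell by 4.16 (adjusted p = 3.1e-05), Ctrb1, a chymotrypsinogen, by 4.17 (adjusted p = 0.00045), Amy2a1, an amylase, by 4.07 (adjusted p = 0.0011) and Cel, the bile salt-dependent lipase, by 3.17 (adjusted p = 0.0046). The carboxypeptidases Cpa1 and Cpb1 fell by 3.39 and 3.41 (adjusted p = 0.00051 and 0.00075). Cisplatin counts behind these values were low, from 0 to 23 in a library against 19 to 258 with PBS, so some folds rest on single libraries. Cisplatin counts were 1, 0 and 10 for Amy2a1, 12, 0 and 3 for Cel, 0, 13 and 4 for Try5 and 0, 5 and 1 for Ctrb1. Leaving out cisplatin library 2, the value was -3.43 for Amy2a1, -2.53 for Cel and -4.74 for Try5, and Ctrb1 then has too few cisplatin counts (0 and 1) for a fold. Of a longer set of 38 exocrine genes, written after these values were seen, 26 were tested, 24 fell and 0 rose. The low-count filter keeps a gene that is high enough in a single group, and Gp2 passed it through PBS rDC of the TDLN. Gp2 averaged 0.738 CPM with cisplatin and 4.06 CPM with PBS in the TDLN. In the LN it averaged 1.63 and 0.907 CPM in that order. A member tested only through its PBS level was bound to look lower with cisplatin, so the count of falls is no independent support. Near-identical copies within the set share reads. Amy2a2, Amy2a3 and Amy2a4 had the same values in every library (-2.85 ± 0.40, adjusted p = 0.00066), and the trypsinogens are close relatives. The 38 genes had 166, 205 and 141 counts with cisplatin and 1698, 1208 and 1416 with PBS, while 5 endocrine hormone genes of the pancreas (Ins1, Ins2, Gcg, Sst and Ppy) had 3, 4 and 2 counts with cisplatin and 0, 3 and 2 with PBS.

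Acinar genes are switched on by the PTF1 complex, which binds an E-box and a TC-box. The E-box CACCTG was present in 15 of 31 exocrine genes with a RefSeq promoter (48.4%) and in 20.2% of all promoters, and the TC-box TTTCCCA in 7 of 31 (22.6%) and in 8.06% of all, each on either strand. Listed genes counted by any promoter, and the shares of all by single promoters. The TC-box was also in 18.2% of type I interferon genes and 6.25% of chaperone genes, and the E-box in 22.7% and 12.5%. The heat shock pair was in 35.5% of exocrine genes and in 15.1% of all promoters. Cela2a and Prss2 are shown because they fell with small errors and hold both boxes, in capitals. The windows are chr4:141825956-141826255 on the minus strand and chr6:41521526-41521825 on the plus strand (GRCm38.p6).
Cela2a: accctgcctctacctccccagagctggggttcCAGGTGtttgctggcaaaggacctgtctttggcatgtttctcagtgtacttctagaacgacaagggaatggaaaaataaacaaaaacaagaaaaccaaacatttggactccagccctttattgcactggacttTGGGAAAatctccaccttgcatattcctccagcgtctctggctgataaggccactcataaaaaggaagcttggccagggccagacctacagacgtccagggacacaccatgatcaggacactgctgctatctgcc
Prss2: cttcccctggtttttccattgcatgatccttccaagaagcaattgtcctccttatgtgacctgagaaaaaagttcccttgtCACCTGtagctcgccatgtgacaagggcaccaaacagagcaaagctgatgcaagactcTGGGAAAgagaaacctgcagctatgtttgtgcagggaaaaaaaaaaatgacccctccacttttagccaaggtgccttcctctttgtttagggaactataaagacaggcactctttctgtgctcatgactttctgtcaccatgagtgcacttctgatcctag

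Exocrine transcripts were present in every group of dendritic cells, and they did not differ in 1 direction between cisplatin and PBS. On the scale of the 24 dendritic cell libraries the 38-gene sum was 41.8 to 52 CPM in cisplatin rDC of the TDLN and 396 to 409 CPM in PBS rDC of the TDLN. In rDC of the LN it was 123 to 133 CPM with cisplatin and 29.3 to 42.2 CPM with PBS. In mDC it was 304 to 339 CPM with cisplatin and 139 to 142 CPM with PBS in the TDLN, and 1253 to 1404 CPM with cisplatin and 223 to 248 CPM with PBS in the LN. Libraries of a group were close to each other, and of the 8 groups only cisplatin rDC of the TDLN and PBS rDC of the LN overlapped. Of the 26 genes tested, 20 rose and 0 fell with cisplatin in rDC of the LN, where 10.7% of genes rose, 7.17% fell and 17.9% changed, and 22 rose and 0 fell in mDC of the TDLN, where 11.4% rose, 17.5% fell and 28.9% changed. Whether these transcripts came from tissue collected with the nodes was not tested.

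**Figure D4:**
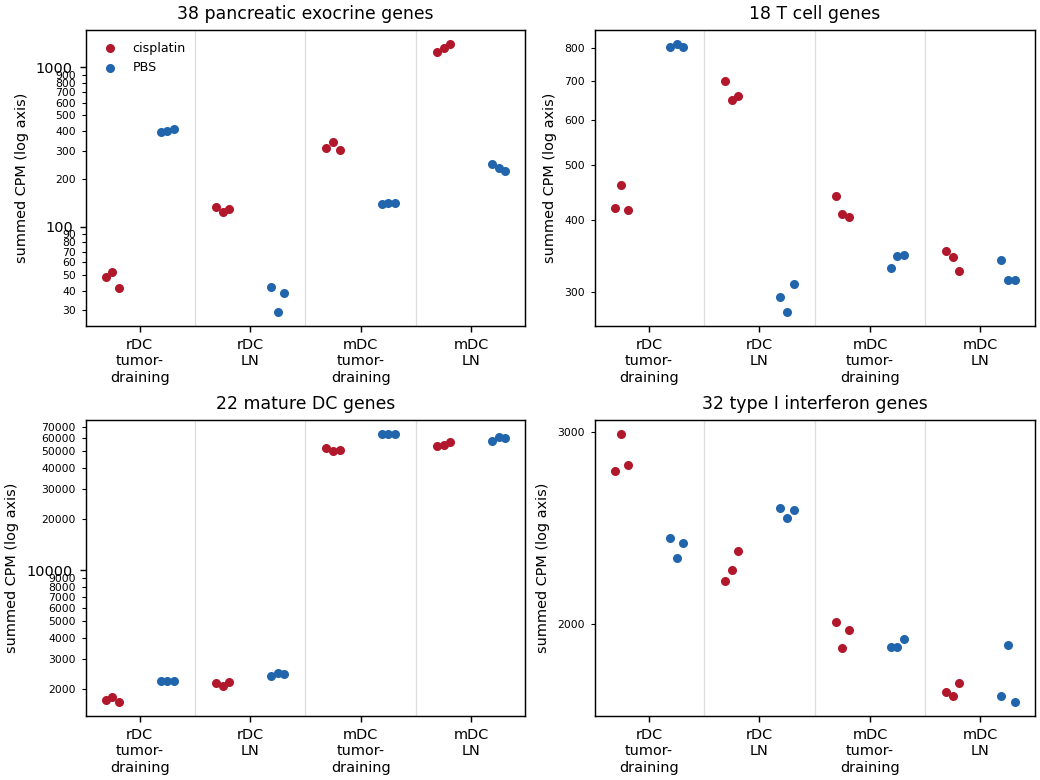
Summed CPM (log axis, scaled over 24 libraries) of 4 gene sets in each library of the 8 dendritic cell groups, cisplatin in red left of PBS in blue. Exocrine genes are lower with cisplatin in rDC of the TDLN, at 41.8 to 52 against 396 to 409 CPM, and higher with cisplatin in the other 3 pairs.

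Several other genes were chosen after their values were seen. Ighe, the constant region of immunoglobulin E, had 0.331, 1.17 and 1.01 CPM with cisplatin and 54, 53.7 and 62.3 CPM with PBS (-6.02 ± 0.35, adjusted p = 4.4e-08). On the 24-library scale Ighe was at 0.293 to 1.01 CPM in cisplatin rDC and 46.8 to 54.9 CPM in PBS rDC of the TDLN, at 0 to 1.1 and 24.8 to 26.5 CPM in cisplatin and PBS mDC of the TDLN, and at most 1.35 CPM in every LN library. Igha, the constant region of immunoglobulin A, went the other way, with 21.2, 30.1 and 23 CPM with cisplatin and 3.46, 2.65 and 4.59 CPM with PBS (2.78 ± 0.29, adjusted p = 3.1e-05). Of 8 plasma cell genes edgeR called 0, with 2 lower at an unadjusted p under 0.05, 1 lower in DESeq2, and 2 lower in limma voom and without cisplatin library 2. Stk11, the kinase LKB1, which overlaps Cbarp on the other strand, had 19.9, 21.9 and 17.2 CPM with cisplatin and 80.8, 87.4 and 73.4 CPM with PBS (-2.03 ± 0.13, adjusted p = 8.2e-08). On the 24-library scale the PBS rDC of the TDLN held 64.7 to 76.1 CPM of Stk11, and the other 7 groups 7.55 to 20.3 CPM. Mpeg1, a pore-forming protein of phagocytes, had 153, 148 and 142 CPM with cisplatin and 271, 257 and 262 CPM with PBS (-0.84 ± 0.08, adjusted p = 9.4e-06). C3, the central complement protein, had 120, 162 and 106 CPM with cisplatin and 69.4, 67 and 70.5 CPM with PBS (0.91 ± 0.14, adjusted p = 0.0016), and Rnf213, an interferon-induced ubiquitin ligase outside the list used above, had 73.1, 66.3 and 71.3 CPM and 40.7, 40.1 and 31.8 CPM in that order (0.90 ± 0.12, adjusted p = 0.0004).

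Genes of the DNA damage response did not pass the test. Of 27 p53 targets edgeR called 0, with a median of 0.00434 and 1 higher and 3 lower at an unadjusted p under 0.05. Of 30 crosslink and excision repair genes it called 0, with a median of 0.03 and 1 higher and 1 lower at that unadjusted level. DESeq2, limma voom with library weights and edgeR without cisplatin library 2 also called 0 in both lists, and the GC and length offset called 1 p53 target higher. Cdkn1a, the p21 cell cycle inhibitor, had 65.8, 83.6 and 54.7 CPM with cisplatin and 43.9, 54.5 and 49.2 CPM with PBS (0.48 ± 0.15, adjusted p = 0.19). Mdm2, the ubiquitin ligase of p53, had 80.1, 80.6 and 72 CPM with cisplatin and 78.7, 86.2 and 72.1 CPM with PBS (-0.02 ± 0.11, adjusted p = 0.98). Bbc3, the death effector PUMA, had 8.27, 8.18 and 8.11 CPM with cisplatin and 7.71, 7.94 and 7.54 CPM with PBS (0.08 ± 0.26, adjusted p = 0.97), and the lesion sensor Ddb2 had 19.2, 18.7 and 23.3 CPM and 30.8, 25 and 30.5 CPM in that order (-0.51 ± 0.14, adjusted p = 0.14). Of 30 cell cycle genes edgeR, DESeq2 and limma voom called 0, with a median of -0.03 and 1 lower at an unadjusted p under 0.05. Mki67, the proliferation marker, had 29.4, 24.8 and 30.8 CPM with cisplatin and 30.3, 18.9 and 28.2 CPM with PBS.

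Antigen presentation genes gave no call in edgeR or DESeq2, with 0 of 12 for MHC class II and 0 of 22 for MHC class I and peptide loading, and 0 in both at an unadjusted p under 0.05. Limma voom called 1 class I gene lower, and without cisplatin library 2 edgeR called 1 class II gene higher, 1 lower and 3 class I genes lower. H2-Aa, a class II chain, averaged 9076 ± 466 TPM with cisplatin and 9235 ± 237 TPM with PBS (SD, n = 3 each). Of the 45 lists 28 had no called member, among them cytosolic DNA sensing (0 of 14, with 5 higher at an unadjusted p under 0.05, 0 in DESeq2 and 3 higher in limma voom), type 1 conventional dendritic cells (0 of 20, with 2 lower unadjusted, 1 lower in DESeq2, and 2 in limma voom and without cisplatin library 2) and plasmacytoid dendritic cells (0 of 20, with 0 unadjusted, 0 in DESeq2, 2 lower in limma voom and 3 lower without cisplatin library 2). Of 33 cytosolic ribosomal protein genes edgeR and DESeq2 called 0 with all libraries (3 lower unadjusted, 10 lower in limma voom). Without cisplatin library 2, 15 of them fell, against 0 with the GC and length offset and 6 with the offset and without that library. Their sum was 4906, 6797 and 4611 CPM with cisplatin and 5689, 5926 and 6108 CPM with PBS, so library 2 lay above and libraries 1 and 3 below the PBS range. Without library 2 cytosolic DNA sensing had 4 genes higher and 1 lower. Of the remaining lists, 1 of 14 dendritic cell genes (Ccr7) and 1 of 3 tested erythroid genes (Hbb-bs) fell. With cisplatin library 2 left out 2 dendritic cell genes rose and 2 fell, and 2 erythroid genes fell. Hbb-bs, a hemoglobin chain, had 0, 0 and 0.338 CPM with cisplatin and 2.13, 1.51 and 3.93 CPM with PBS (adjusted p = 0.018, and 0.0728 and 0.101 without cisplatin 1 and without PBS 3), too few counts for a fold.

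The series' title names IL-33, an alarmin cytokine. Il33 had 2.98, 3.51 and 4.06 CPM with cisplatin and 0, 2.27 and 0.656 CPM with PBS. The groups did not overlap, but the value of 1.98 ± 0.70 did not pass (adjusted p = 0.29, and 0.17 without cisplatin library 2). Il1rl1, which encodes its receptor ST2, had 2.65, 1.75 and 2.7 CPM with cisplatin and 3.72, 3.78 and 2.95 CPM with PBS (-0.57 ± 0.44, adjusted p = 0.78). Of 14 tested genes of the IL-1 family and type 2 immunity edgeR and DESeq2 called 0, with 4 higher at an unadjusted p under 0.05, 1 higher in limma voom and 3 higher without cisplatin library 2.

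The effect of cisplatin in the TDLN differed from that in the LN for 745 of 14023 genes (5.31%), 367 with a higher (2.62%) and 378 with a lower effect (2.7%) in the TDLN. Without cisplatin library 2 it was 1784 genes, and without PBS library 3 of the TDLN 485. The PBS libraries of the LN were deeper, at 10733509 to 14869939 counts. All 12 exocrine genes named above had a lower effect in the TDLN. They were picked by their fold change in the TDLN, which is part of this difference, so that count is not independent support. Cela2a averaged 4.36 ± 2.05 CPM with cisplatin and 64.7 ± 4.78 CPM with PBS in the TDLN, and 17.2 ± 2.87 CPM with cisplatin and 4.87 ± 0.944 CPM with PBS in the LN (SD, n = 3 each), a difference of effects of -5.66 ± 0.31 (adjusted p = 9.4e-09). T cell genes also went opposite ways. In the LN 16 of 18 rose and 0 fell, 16 had a lower effect in the TDLN, and Cd3d gave a difference of -5.11 ± 0.33 (adjusted p = 3.6e-08). The T cell sum was 475 to 531 CPM with cisplatin and 913 to 934 CPM with PBS in the TDLN, and 746 to 810 CPM with cisplatin and 297 to 338 CPM with PBS in the LN.

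Of the 12 largest rises 11 had a higher effect in the TDLN, and Chil3, which also rose in the LN by 2.72 (adjusted p = 4.1e-05), did not differ by the test (-0.66 ± 0.52, adjusted p = 0.53). The rises too were picked by their fold change in the TDLN, so the count of 11 is not independent of that choice. Clec5a averaged 7.14 ± 0.447 CPM with cisplatin and 2.85 ± 0.857 CPM with PBS in the TDLN, and 3.64 ± 0.321 CPM with cisplatin and 7.14 ± 1.11 CPM with PBS in the LN (SD, n = 3 each), a difference of 2.33 ± 0.40 (adjusted p = 0.0016). Bcl2a1a, a survival protein of the BCL2 family with near-identical copies, gave 2.11 ± 0.26 (adjusted p = 5.4e-05), Calhm6 2.09 ± 0.26 (adjusted p = 7.4e-05) and Anln, a cytokinesis protein, 1.87 ± 0.33 (adjusted p = 0.0019). Nnt, the mitochondrial transhydrogenase, gave 2.93 ± 0.82 (adjusted p = 0.046), with a PBS mean of 36.3 ± 20.3 CPM in the TDLN and a cisplatin mean of 3.86 ± 6.68 CPM in the LN, so its libraries scattered within groups. The Nnt call was lost without cisplatin 3 or PBS 1 or 3 of the TDLN, cisplatin 1 or 3 of the LN or any PBS library of the LN (adjusted p = 0.0539 to 0.11). The difference for Tmem26 (1.29 ± 0.32, adjusted p = 0.025) was lost without PBS 1 or 3 of the TDLN or PBS 2 of the LN (0.0507 to 0.0826). Hspa1a and Hspa1b differed by 1.53 ± 0.24 and 1.5 ± 0.19 (adjusted p = 0.00062 and 0.00011). In the immediate early list 9 of 24 genes had a higher and 0 a lower effect in the TDLN, and 12 fell and 0 rose with cisplatin in the LN. Of the 32 type I interferon genes 5 had a higher effect and 0 a lower one, with 2 higher and 2 lower in the LN. Some mature dendritic cell genes fell in the LN too. Fscn1 fell there by 1.78 on the log2 scale (adjusted p = 8.4e-07), Ccl22 by 1.72 (adjusted p = 1.2e-05) and Cacnb3 by 1.56 (adjusted p = 0.00064), and the differences between nodes did not pass (0.64 ± 0.21, 0.21 ± 0.28 and -0.32 ± 0.38, adjusted p = 0.088, 0.74 and 0.7). Ccr7 fell in the TDLN, with a difference of -0.71 ± 0.10 (adjusted p = 0.00038) and a value of 0.15 in the LN (adjusted p = 0.19).

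**Figure D5:**
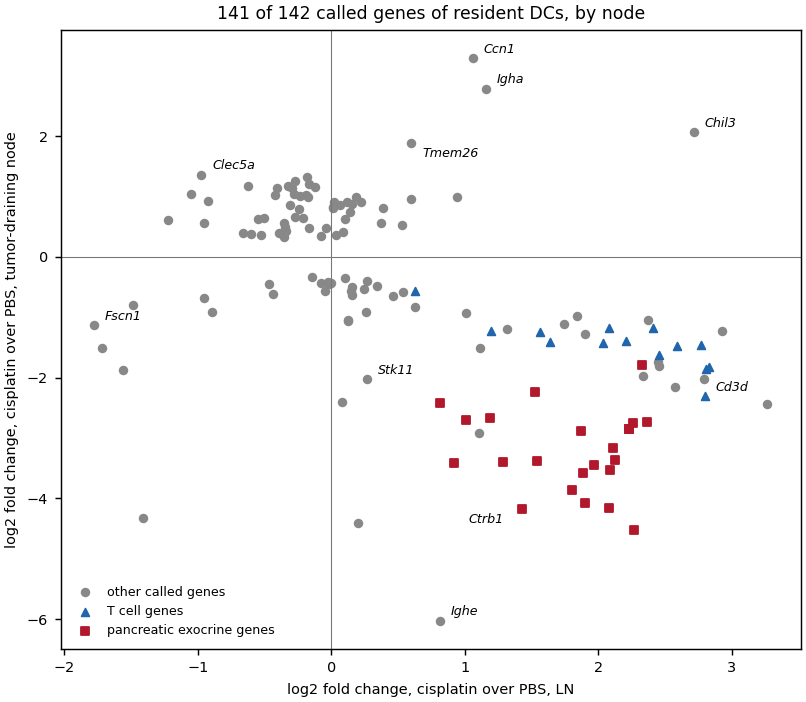
Log2 fold change with cisplatin in rDC of the TDLN (y axis) and in rDC of the LN (x axis) for 141 of the 142 genes called in the TDLN, leaving out 1 with no count in cisplatin libraries of the TDLN. Exocrine genes (red squares) and T cell genes (blue triangles) lie below 0 in the TDLN and above 0 in the LN.

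Against mDC of the same node the effect in rDC differed for 1860 of 14548 genes (12.8%), 1005 higher (6.91%) and 855 lower (5.88%) in rDC. Without cisplatin library 2 of rDC it was 2791 genes. The mDC PBS libraries held 11424067 to 15481059 counts, and with deep libraries thinned 1056 genes were called. In mDC 20 of 24 immediate early genes fell and 0 rose with cisplatin, and 18 had a higher effect in rDC. Egr1 rose by 0.33 in rDC and fell by 0.99 on the log2 scale in mDC (adjusted p = 3.3e-12), a difference of 1.32 ± 0.09 (adjusted p = 1.8e-11). Of 24 NF-kB targets 15 fell and 0 rose in mDC and 16 had a higher effect in rDC, Nfkbiz by 1.41 ± 0.11 (adjusted p = 1.2e-09). Of the largest rises 7 of 12 had a higher effect in rDC (Tmem26, Clec5a, Hspa1a, Hap1, Hspa1b, Calhm6 and Jdp2), and all 12 exocrine genes a lower one. Both sets were picked by their change in rDC of the TDLN, which is part of these differences, so the counts are not independent support. Hspa1a fell by 0.64 on the log2 scale in mDC (adjusted p = 0.0004), and the difference was 1.90 ± 0.18 (adjusted p = 4e-08). Axl rose in both, by 0.99 in rDC and by 1.05 in mDC (adjusted p = 5.4e-06), with a difference of -0.05 ± 0.19 (adjusted p = 0.89). Oasl2 rose in both as well, by 1.19 in mDC (adjusted p = 3.2e-06), with a difference of -0.36 ± 0.20 (adjusted p = 0.23).

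The genes with the highest difference to mDC were mostly low in rDC. Cxcl2, a chemokine for neutrophils, averaged 7.18 CPM with cisplatin and 2.59 CPM with PBS in rDC, and 20.6 ± 1.17 CPM with cisplatin and 39.7 ± 1.53 CPM with PBS in mDC (SD, n = 3 each, 24-library scale), a difference of 2.33 ± 0.31 (adjusted p = 8.1e-06). Fblim1, an adhesion adaptor, averaged 2.95 and 0.641 CPM in cisplatin and PBS rDC, and 26.5 ± 2.57 and 39.2 ± 0.427 CPM in cisplatin and PBS mDC, a difference of 2.69 ± 0.50 (adjusted p = 0.00064). Emp2, a tetraspan protein, gave 2.07 ± 0.40 (adjusted p = 0.00098), Rasgef1a, a Ras exchange factor, 2.77 ± 0.86 (adjusted p = 0.033) and Hgd, an enzyme of tyrosine breakdown, 2.40 ± 0.78 (adjusted p = 0.041). The lowest differences were Ctrb1 (-5.87 ± 0.55, adjusted p = 1.9e-08), Amy2a1, Cela2a and Clps, and Exosc6, an RNA exosome subunit (-5.50 ± 1.35, adjusted p = 0.01), which had 12 and 12.2 CPM in cisplatin and PBS rDC, 0.986 ± 1.13 CPM in cisplatin mDC and no count in PBS mDC, so that its difference rests on mDC. Rasgef1a was lost without cisplatin 1 or PBS 1 or 2 of rDC (adjusted p = 0.0833 to 0.433, 1.38 without cisplatin 1), Hgd without cisplatin 2 or 3 or PBS 1 of mDC or cisplatin 3 or PBS 2 or 3 of rDC (0.0511 to 0.191), and Exosc6 without cisplatin 1 of mDC (0.126).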

How the data were processed

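Sorted myeloid cells were profiled by RNA-seq with a stranded mRNA kit, per the labels' protocols. The submitters' processing notes name STAR, the GRCm38 build, RSEM 1.3.0 and DESeq2 1.38.3, without roles. The authors deposited estimated counts and TPM per gene; the count values are whole numbers. The main test used the 12 rDC libraries in 1 model with edgeR 4.0.16 (TMM scaling, low-count filter by group, quasi-likelihood test, Benjamini-Hochberg limit 0.05), R 4.3.3, and a 24-library model for the comparison with mDC. DESeq2 1.42.0 and limma 3.58.1 were alternatives. The scripts were tested on simulated data. Genes were named by rule: the 12 largest called changes per direction with non-overlapping groups and a mean of at least 4 CPM, called members of each list (at most 6 with the smallest p), Il33 and Il1rl1, and 5 differences per direction, leaving out predicted, immunoglobulin, T cell receptor and Y-linked genes and Xist. Members named as not called, and genes marked so, were chosen after their values were seen. Columns headed WT in the deposited tables were read as LN libraries by elimination. The members and lists were chosen with earlier results of these data known. Replicate numbers did not pair libraries: same-numbered deviations correlated at -0.0358, 0.0807 and -0.103. Exact tests of 3 against 3 libraries cannot go below p = 0.1. Some results are not reported here.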

Additional observations from a re-analysis of the deposited data

Results flagged for a closer look

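Named genes were looked at again where the cisplatin effect differed between the TDLN and the LN in rDC, by a test of the difference itself in edgeR's quasi-likelihood model. The largest rises and the exocrine genes below were picked by their fold change in rDC of the TDLN, which is part of each difference. Among the largest rises the log2 difference, TDLN minus LN, was 1.29 for Tmem26, 2.33 for Clec5a, 1.53 for Hspa1a, 1.38 for Hap1, 1.5 for Hspa1b, 1.28 for Oas2, 1.54 for Cfb, 1.43 for Msr1, 1.31 for Hcar2, 2.09 for Calhm6 and 1.21 for Jdp2. Among the exocrine genes it was -5.6 for Ctrb1, -6.24 for Clps, -5.97 for Amy2a1, -5.66 for Cela2a, -5.47 for Rnase1, -5.61 for Try4, -5.41 for Prss2, -4.32 for Cpb1, -4.68 for Cpa1, -4.93 for Cela1, -5.48 for Try5 and -5.28 for Cel. It was 2.93 for Nnt, 2.11 for Bcl2a1a and 1.87 for Anln.

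Between rDC and mDC of the TDLN the same kind of test gave a log2 difference, rDC minus mDC, of 1.81 for Tmem26, 1.72 for Clec5a, 1.9 for Hspa1a, 1.57 for Hap1, 1.78 for Hspa1b, 1.4 for Calhm6 and 1.05 for Jdp2. For the exocrine genes it was -5.87 for Ctrb1, -5.12 for Clps, -5.32 for Amy2a1, -5.15 for Cela2a, -4.56 for Rnase1, -4.51 for Try4, -4.55 for Prss2, -5 for Cpb1, -4.28 for Cpa1, -4.55 for Cela1, -4.55 for Try5 and -4.05 for Cel. It was 2.77 for Rasgef1a, 2.69 for Fblim1, 2.4 for Hgd, 2.33 for Cxcl2, 2.07 for Emp2 and -5.5 for Exosc6.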

How the results depend on the processing

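None of the called named genes was reversed under the alternatives run. Nnt, named for its difference between nodes and not called in the TDLN, went there from 0.046 to -0.0662 without cisplatin library 2. The balance of calls also turned. More genes were lower than higher in the main model, but more were higher with the GC and length offset (159 higher and 131 lower). Genes higher with cisplatin, 56 in the main model, numbered 100 with DESeq2, 148 with limma voom and library weights, 91 without the low-count filter, 24 with the 6 libraries alone, 159 with the GC and length offset, 218 with that offset and without cisplatin library 2, and 22 to 232 with 1 library left out. Genes lower, 86 in the main model, numbered 272 with limma voom, 144 without the filter, 131 with the offset, 224 with the offset and without cisplatin library 2, and 59 to 381 with 1 library left out. With the replicate number as a block, which the check of pairing did not warrant, 36 genes were higher and 73 lower, and 31 were higher with the block in the 6 libraries alone. The difference between nodes, 745 genes, was 1845 without the filter and 485 to 1784 with 1 library left out. The difference between rDC and mDC, 1860 genes, was 1056 with deep libraries thinned and 1413 to 2791 with 1 library left out. Among the libraries left out, cisplatin library 2 gave the highest count each time, and the cause was not tested. Of the 58 called named genes, size factors in place of TMM kept 58, DESeq2 57, limma voom 55, the absence of a filter 53 and the block 50, and leaving out PBS library 1, 2 or 3 kept 39, 38 and 36 (52, 57 and 46 for cisplatin library 1, 2 or 3). Of the 57 that could be tested, 36 were kept in the 6 libraries alone and 39 with the block there. At a depth of 2721840 to 3842097 counts per library, the exocrine genes had 0 to 23 counts in cisplatin libraries, which limits their folds.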
